A study of Penicillium oxalicum with 6 samples.

Results

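The data described here are the transcript levels of 7 accessory genes of cellulose and xylan breakdown in the filamentous fungus *Penicillium oxalicum*, out of 9822 annotated genes. They comprise 3 endo-β-1,4-xylanase genes (*POX_a00512* and *POX_b03446* of glycoside hydrolase family GH11, and *POX_c03490* of GH30), the endo-β-1,4-glucanase genes *POX_a00764* and *POX_b02748* of GH5, the GH45 gene *POX_d04884*, and the AA9 gene *POX_b02315*. The 7 genes were chosen from the genes that the paper lists as upregulated in GXUR001 against TE4-10, the same contrast as here. Their fold changes are therefore given with standard errors as a description and without a test. Functions and families follow the annotation in the paper.

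TE4-10 is a mutant obtained by random mutagenesis. It descends through strain A2-13 from a Δ*PoxKu70* strain in which the glucoamylase gene *PoxGA15A* was overexpressed from the cellulose-inducible promoter of *PoxEgCel5B*, although its genotype label reads WT. GXUR001, labelled 1387-3890, was made from TE4-10 by deleting the regulatory gene *PoxCxrC* and overexpressing the regulatory gene *PoxAmyR* (*POX_f08097*), so both strains carry the older changes and the effects of the 2 newer ones cannot be told apart. The promoter driving *PoxAmyR*, and how many transformants stand behind GXUR001, are not given in the sources used here. Mycelium of both strains was grown on glucose for 24 h and then induced for 24 h. According to the paper the induction medium held wheat bran plus Avicel (purified cellulose), whereas the labels name raw starch alone. Replicates 1 and 3 of TE4-10 (n = 2) and replicates 1, 2 and 3 of GXUR001 (n = 3) entered the comparison. Replicate 2 of TE4-10 was not analysed here.

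Cellulose is a crystalline chain of glucose, and xylan is a branched chain of xylose that covers it in plant cell walls. Cellobiohydrolases and the most abundant endoglucanases do most of the hydrolysis of cellulose. Other endoglucanases cut within its less ordered stretches, lytic polysaccharide monooxygenases of the AA9 family cleave its surface by oxidation with a copper centre, and endo-xylanases cut the xylan backbone. In filamentous fungi these genes are usually induced together on plant biomass and repressed by glucose.

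The unit is FPKM, fragments scaled to transcript length and to the depth of the library. FPKM values summed to between 1218691 and 1295493 per library. The files give no read counts, but the steps of low FPKM values put the depth of the other libraries at 0.993 to 1.102 times that of TE4-10 replicate 1. For fold changes the libraries were rescaled, and over all 9636 genes tested this shifted the median log2 fold change to 0.00 from -0.26. *PoxAmyR* itself had 62.8 and 66.7 FPKM in TE4-10 and 90.6, 84.1 and 74.3 FPKM in GXUR001 replicates 1, 2 and 3, a log2 fold change of 0.62 (SE 0.16, limma adjusted p = 0.049) that lost its call in 9 of 14 alternatives, among them the deposited scale (0.35). No source used here ties *PoxCxrC* to a gene ID, so its deletion was not checked here. The paper reports that GXUR001 was verified by PCR and that no *PoxCxrC* expression was found in it. It also reports higher *PoxAmyR* in GXUR001 by RNA-seq, and by RT-qPCR except at the earliest time shown. The TE4-10 libraries lay far apart in 4 of the 7 genes, and fold changes are therefore also given without each of them. In these bulk samples, fewer cells expressing a gene and less of its RNA per cell cannot be told apart.

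All 7 genes had a higher mean level in GXUR001, with a median log2 fold change of 1.05 and a range from 0.42 to 1.38. GXUR001 lay wholly above TE4-10, on the rescaled values, for 6 of them, as it did for 26.7% of all genes tested. Only the most abundant gene, *POX_a00764*, overlapped between the strains. At an adjusted p under 0.05 the fit called 6 of the 7 higher, where 9.74% of all genes were called higher and 8.08% lower. Nothing is read from these counts, since the genes were selected on this contrast. The count of 6 fell to 0 without GXUR001 replicate 2 and to 2 without GXUR001 replicate 1 or replicate 3, and was 4 on the deposited scale.

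**Figure D1:**
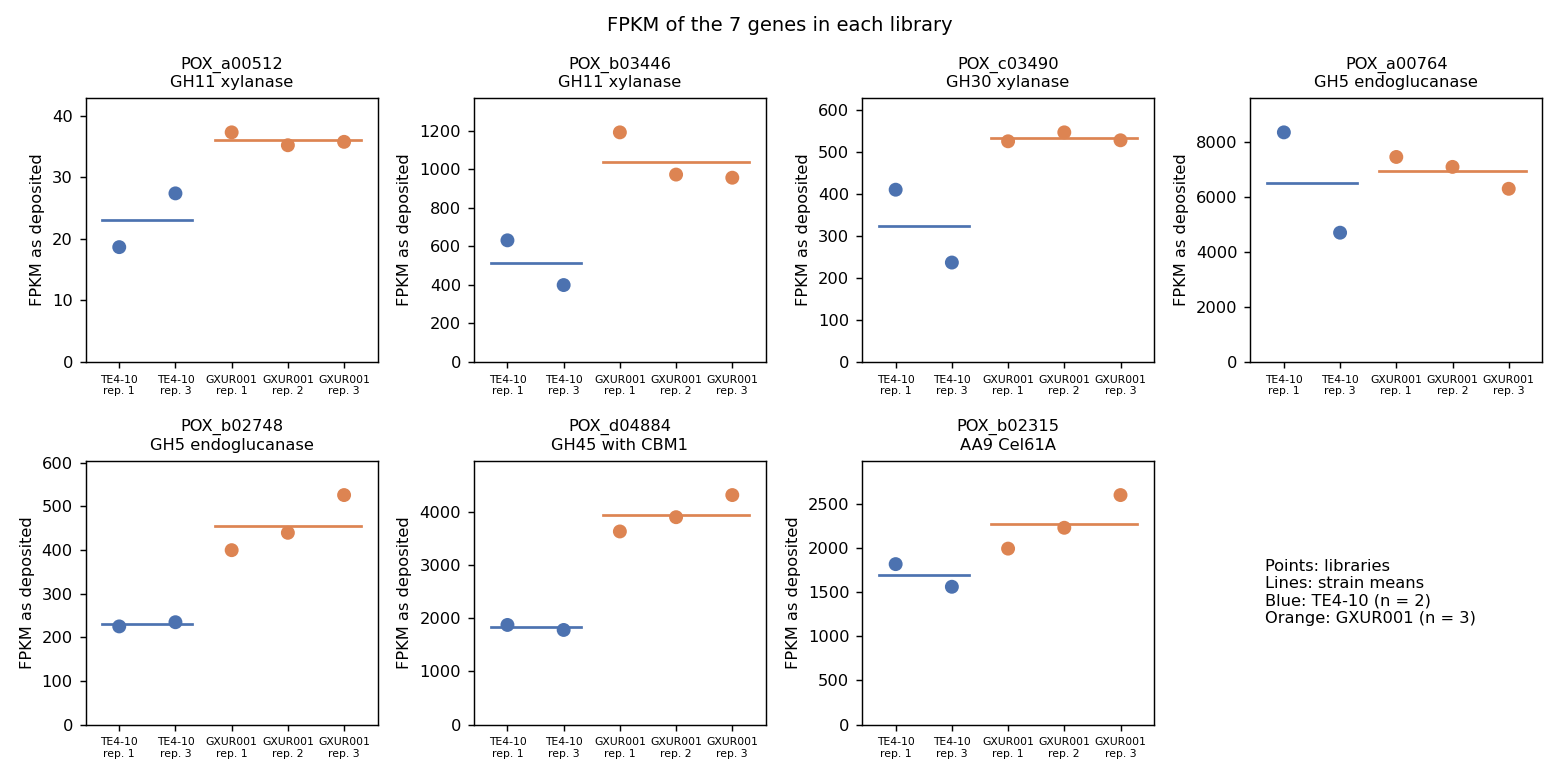
Deposited FPKM (vertical axes, each starting at 0) of the 7 genes in each library, with 1 point per library and a line at the strain mean (TE4-10 n = 2, GXUR001 n = 3). The GXUR001 points lie above both TE4-10 points in 6 panels, and in that of *POX_a00764* TE4-10 replicate 1 is the highest of the 5 points.

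The 3 xylanase genes differed widely in level. *POX_b03446* was the most abundant of them, with 632 and 399 FPKM in TE4-10 replicates 1 and 3 and 1193, 973 and 957 FPKM in GXUR001 replicates 1, 2 and 3. The strains did not overlap, and the means were 516 ± 164 FPKM (SD, n = 2) and 1041 ± 132 FPKM (SD, n = 3). Its log2 fold change was 1.32 (SE 0.24), or 2.49-fold. Leaving out TE4-10 replicate 1 gave 1.62, and leaving out replicate 3 gave 1.02.

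*POX_c03490* encodes a putative xylanase of GH30, a family whose xylanases often act on glucuronic acid-substituted xylan. It had 409.8 and 236 FPKM in TE4-10, and 525, 546 and 527 FPKM in GXUR001. The GXUR001 libraries lay close together (533 ± 11.6 FPKM, SD, n = 3) and above both TE4-10 libraries, which were themselves far apart (323 ± 123 FPKM, SD, n = 2). The log2 fold change of 1.05 (SE 0.22) became 1.41 without TE4-10 replicate 1 and 0.68 without TE4-10 replicate 3.

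*POX_a00512*, the other GH11 xylanase gene, was expressed far lower. It had 18.6 and 27.4 FPKM in TE4-10 and 37.3, 35.2 and 35.7 FPKM in GXUR001. The strains did not overlap, and here TE4-10 replicate 3, not replicate 1, was the higher TE4-10 library. Its log2 fold change was 0.92 (SE 0.19), 0.62 without TE4-10 replicate 1 and 1.21 without TE4-10 replicate 3. Ranks among the annotated genes were taken on the FPKM scale, which corrects for length. In TE4-10 replicates 1 and 3 they were 6015 and 5040 for *POX_a00512*, and 332 and 496 for *POX_b03446*.

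The endoglucanase gene *POX_a00764* ranked between 7 and 13 of all annotated genes in every library. The name accessory does not describe its level, which was above that of the GH7 endoglucanase gene *POX_d04883*, listed here with the main cellulases, in all 5 libraries. It had 8357 and 4704 FPKM in TE4-10 replicates 1 and 3, and 7462, 7100.2 and 6303 FPKM in GXUR001. All 3 GXUR001 values fell between the TE4-10 values. After rescaling, TE4-10 had 7302 and 4279 FPKM and GXUR001 8530, 7746 and 6359 FPKM, and the strains still overlapped. The log2 fold change was 0.42 (SE 0.27), the smallest of the 7, and it rested on TE4-10 replicate 3. It was 0.81 without replicate 1 and 0.04 without replicate 3. In the rescaled fit of all 5 libraries this gene alone of the 7 was not called. Nothing is read from that, since the genes were selected on this contrast and the calls changed between fits.

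The other GH5 gene, *POX_b02748*, had 225 and 235 FPKM in TE4-10 and 399.6, 439 and 526 FPKM in GXUR001. The TE4-10 libraries were nearly equal, and all GXUR001 libraries were above them. The log2 fold change was 1.25 (SE 0.11), or 2.38-fold, and leaving out either TE4-10 library kept it above 1.

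*POX_d04884* carries a GH45 catalytic domain and a CBM1 module, a small fungal domain that binds cellulose. It had 1875 and 1781 FPKM in TE4-10 and 3635, 3904 and 4319.9 FPKM in GXUR001. Every GXUR001 library was far above both TE4-10 libraries, with means of 1828 ± 66.6 FPKM (SD, n = 2) and 3953 ± 345 FPKM (SD, n = 3). Its log2 fold change of 1.38 (SE 0.11), or 2.61-fold, was the largest of the 7 with all 5 libraries. Without TE4-10 replicate 1 it was 1.393, below *POX_b03446* (1.62) and *POX_c03490* (1.415). Without GXUR001 replicate 3 it was 1.368, below *POX_b03446* (1.424). On rescaled values *POX_d04884* also varied least, with a coefficient of variation of 0.783% in TE4-10 (n = 2) and 2.38% in GXUR001 (n = 3). This depended on the scale. On deposited FPKM *POX_c03490* varied less in GXUR001 relative to its mean, at 533 ± 11.6 FPKM (SD, n = 3).

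*POX_b02315* encodes the AA9 monooxygenase named Cel61A. It had 1817 and 1560.3 FPKM in TE4-10 and 1992, 2228 and 2599 FPKM in GXUR001. On these deposited values the lowest GXUR001 library was above the highest TE4-10 library by less than the spread within GXUR001. After rescaling, TE4-10 had 1587 and 1419 FPKM and GXUR001 2277, 2431 and 2622 FPKM. The gap was then wider than the spread within GXUR001. The log2 fold change was 0.70 (SE 0.12), or 1.63-fold, and it was 0.42 on the deposited scale.

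**Figure D2:**
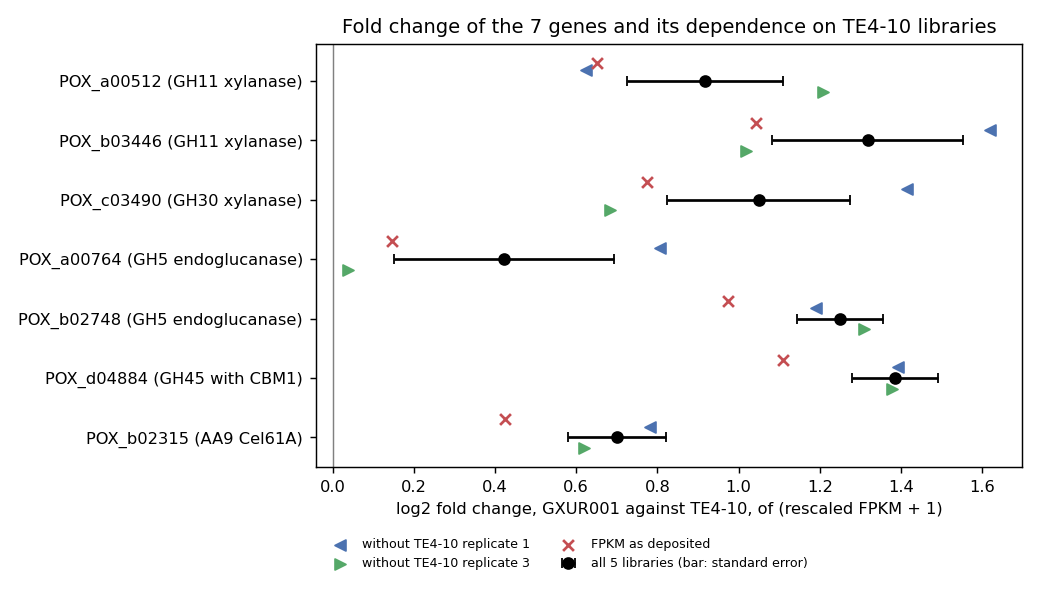
Log2 fold change of GXUR001 against TE4-10, on log2(rescaled FPKM + 1), for each of the 7 genes (black points, bars are the standard error), with the value without TE4-10 replicate 1, without TE4-10 replicate 3 and on deposited FPKM. All values lie above 0, and for *POX_a00764* they run from 0.04 to 0.81.

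The 7 genes kept a single order of level in all 5 libraries. From the highest to the lowest FPKM they were *POX_a00764*, *POX_d04884*, *POX_b02315*, *POX_b03446*, *POX_c03490*, *POX_b02748* and *POX_a00512*. The ranges of neighbours in this order overlapped in TE4-10 for *POX_d04884* with *POX_b02315* and for *POX_b03446* with *POX_c03490*, and in GXUR001 for *POX_c03490* with *POX_b02748*. These overlaps set different libraries against each other, and within every library the order held. In TE4-10, *POX_b03446* and *POX_c03490* had 632 and 409.8 FPKM in replicate 1, and 399 and 236 FPKM in replicate 3. In GXUR001 replicate 3, *POX_c03490* and *POX_b02748* were nearly equal, at 527.4 and 525.8 FPKM. Differences between neighbours were not tested.

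*POX_a00764* took a smaller share of the summed FPKM of the 7 genes in GXUR001, and *POX_d04884* a larger one. The sum was 13335 and 8943 FPKM in TE4-10, and 15243, 15226 and 15267 FPKM in GXUR001, or 1.05% and 0.734% of all FPKM against 1.24%, 1.23% and 1.18%. *POX_a00764* made up 62.7% and 52.6% of the sum in TE4-10 and 49.0%, 46.6% and 41.3% in GXUR001. The GH45 gene *POX_d04884* made up 14.1% and 19.9% in TE4-10 and 23.8%, 25.6% and 28.3% in GXUR001. These shares did not overlap between the strains. The 3 xylanase genes together made up 7.95% and 7.41% in TE4-10 and 11.5%, 10.2% and 9.96% in GXUR001. Shares of *POX_b02315* overlapped, at 13.6% and 17.4% in TE4-10 and 13.1% to 17.0% in GXUR001. The shares follow from the same values that chose the genes and were not tested.

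The genes also varied between libraries of 1 strain. A choice of differentially expressed genes can depend on that spread too, so its values are given as a description. *POX_a00764*, *POX_c03490* and *POX_b03446* had rescaled levels 1.71, 1.66 and 1.52 times as high in TE4-10 replicate 1 as in replicate 3. A ratio as far from 1 in either direction was found in 10.5%, 11.4% and 15.6% of all genes tested. *POX_a00512* went the other way, with a ratio of 0.667 that 16.4% of genes matched or passed. *POX_b02315* (1.12), *POX_d04884* (1.01) and *POX_b02748* (0.921) were nearly equal in the TE4-10 libraries. So the xylanase genes did not share a direction among these 2 libraries.

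**Figure D3:**
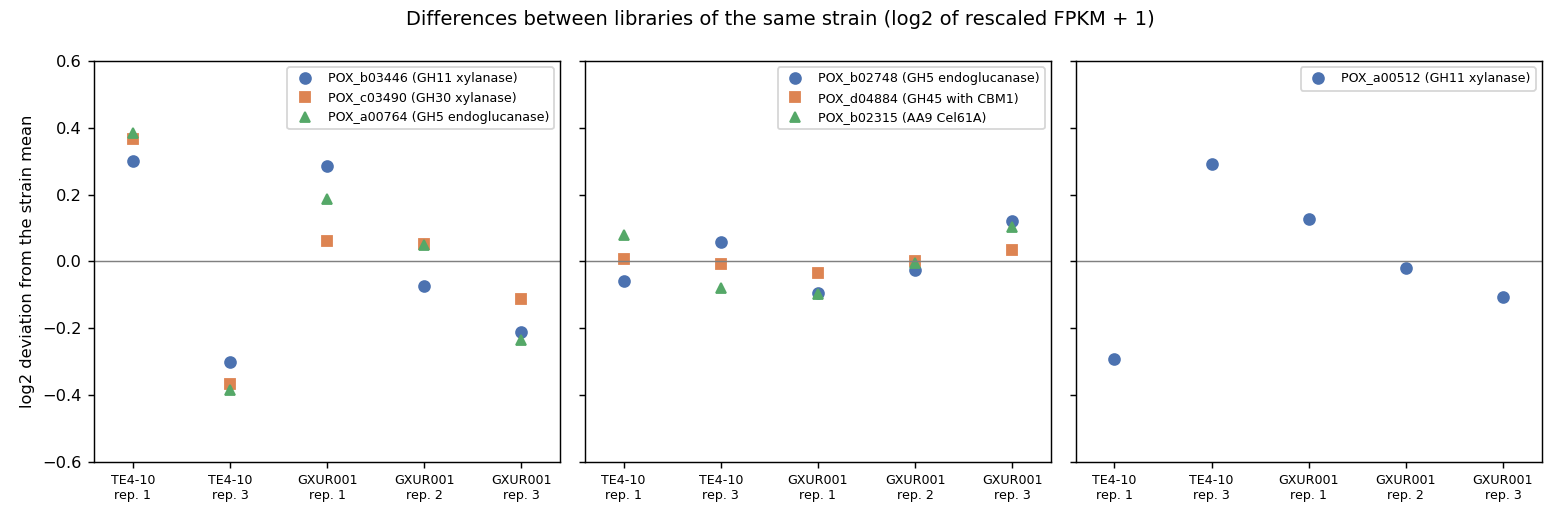
Deviation of each library from its strain mean, in log2 of rescaled FPKM + 1, for the 7 genes in 3 panels grouped after their values were seen. In the left panel TE4-10 replicate 1 is above replicate 3 for all 3 genes, in the middle panel all deviations are small, and in the right panel *POX_a00512* is higher in TE4-10 replicate 3.

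Likeness was measured as the root mean square difference between log2 profiles, where 0 means identical profiles. With each library set against its strain mean, which removes the strain difference, the 21 pairs of genes ranged from 0.0626 to 0.434 with a median of 0.261. *POX_a00764* lay 0.0801 from *POX_c03490* and 0.089 from *POX_b03446*, and these xylanase genes lay 0.13 from each other. *POX_b02748*, *POX_d04884* and *POX_b02315* lay 0.0626 to 0.0891 apart. *POX_a00512* was at least 0.205 from each of the others. The groups were formed after the values were seen and no test was made of them. Some other genes of cellulose and xylan breakdown lay nearer still. *POX_a00764* was 0.0326 from the main cellulase gene *POX_a00030* and 0.0634 from the arabinofuranosidase gene *POX_c03492*. *POX_b03446* was 0.0533 from the β-xylosidase gene *POX_a00284*, whose log2 fold change was -0.63 (not called). Others lay farther, such as *POX_a00185* at 0.532 from *POX_a00764* and 0.483 from *POX_b03446*.

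The pool of 6888 annotated genes with a mean of at least 10 FPKM shows how common such nearness was. Of that pool, 1.31% lay as near to *POX_a00764* as *POX_c03490* did, and 1.66% as near as *POX_b03446* did. For *POX_b03446* with *POX_c03490* the share was 5.97% of the pool around the former and 7.08% around the latter. For pairs of the second group the share was 8.09% to 24.5%, so many genes that varied little lay as near. Over the whole profile, the strain difference included, the nearest pair was *POX_b02748* and *POX_d04884* (0.0927) and the farthest was *POX_a00764* and *POX_d04884* (0.552). All 5 libraries are shared by every pair, and no correlation was computed over so few.

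**Figure D4:**
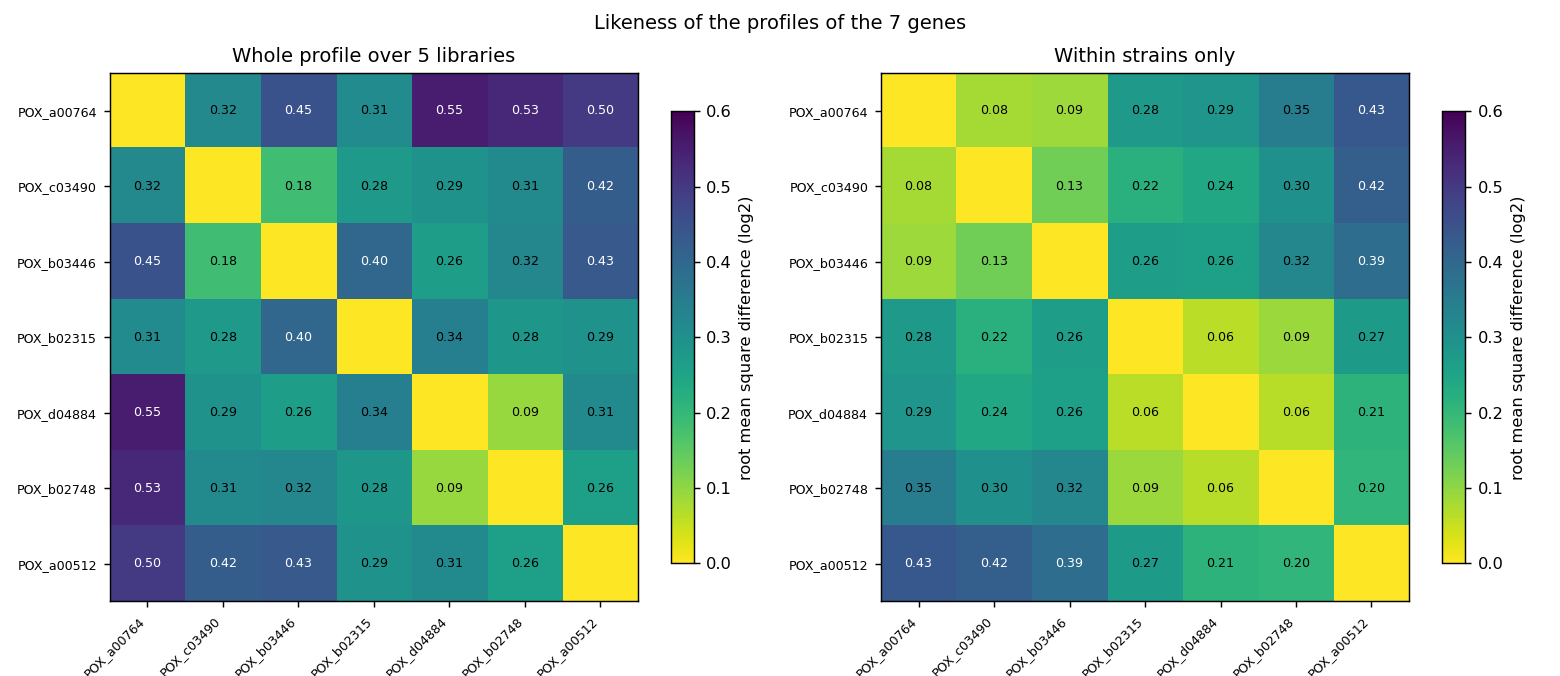
Root mean square difference in log2 between the profiles of each pair of the 7 genes, over the 5 libraries (left) and with the strain means removed (right); numbers in the cells are the differences. With the strain means removed, *POX_a00764*, *POX_c03490* and *POX_b03446* lie 0.0801 to 0.13 apart, and *POX_b02315*, *POX_d04884* and *POX_b02748* lie 0.0626 to 0.0891 apart.

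The genes whose whole profiles came nearest were taken by rule, with 2 for each of the 7. Those of *POX_a00512* were *POX_e07103* (0.016) and *POX_b02399* (0.033). *POX_e07103* had 68.8 and 101 FPKM in TE4-10 and 134, 129.8 and 132 FPKM in GXUR001. It was also higher in TE4-10 replicate 3 than in replicate 1, which its choice by profile entails. Those of *POX_a00764* were *POX_a00264* (0.028) and *POX_a00299* (0.040), both annotated as hypothetical proteins. *POX_a00299* had 255 and 147 FPKM in TE4-10 and 246, 225 and 193 FPKM in GXUR001. Its highest value was in TE4-10 replicate 1, which again follows from the choice by profile. *POX_b02315* was nearest to *POX_g09272* (0.024) and *POX_b03342* (0.047), *POX_d04884* to *POX_g08835* (0.047) and *POX_g08556* (0.067), and *POX_b02748* to *POX_a00236* (0.054) and *POX_f07951* (0.073). The xylanase genes *POX_c03490* and *POX_b03446* had no gene nearer than 0.073 (*POX_d06083*) and 0.10 (*POX_f07344*).

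The genes next to the 7 were not chosen on expression. There are 14 of them, of which *POX_c03491* and *POX_d04883* are also listed companions in cellulose and xylan breakdown. Of the 12 others 11 were tested, and limma called 3 higher (*POX_a00511*, *POX_b03445* and *POX_a00765*) and 0 lower, with 5 at an unadjusted p under 0.05 and a median log2 fold change of 0.34. The 3 calls stand against 9.74% of all genes called higher and 8.08% lower. Beside the 5 stand 3436 of all 9636 genes tested at an unadjusted limma p under 0.05, so such values were common. The 3 adjusted calls fell to 0 without GXUR001 replicate 2 and to 1 without GXUR001 replicate 1 or replicate 3.

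*POX_b03445*, a hypothetical protein gene beside the xylanase gene *POX_b03446*, had 21.5 and 23.2 FPKM in TE4-10 and 30.0, 32.1 and 33.0 FPKM in GXUR001 (log2 fold change 0.75, SE 0.09, limma adjusted p = 0.012). *POX_a00511*, beside the xylanase gene *POX_a00512*, had 2.01 and 1.01 FPKM against 5.73, 5.21 and 4.09 FPKM (log2 fold change 1.47, SE 0.27, limma adjusted p = 0.026). *POX_a00765*, beside *POX_a00764*, had 3.22 and 2.25 FPKM against 5.64, 5.54 and 7.87 FPKM (log2 fold change 1.19, SE 0.20, limma adjusted p = 0.020). These last 2 genes were expressed near the minimum of 1 FPKM. *POX_b02314*, beside *POX_b02315*, was listed at 0 in both TE4-10 libraries and at 0.59, 2.13 and 3.90 FPKM in GXUR001, and was not called (limma adjusted p = 0.090).

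Neighbours did not share the library pattern of *POX_b02748*. *POX_b02747*, a putative carbohydrate acetylesterase gene of family CE16, had 1594 and 877 FPKM in TE4-10 and 1374, 1470.3 and 1462 FPKM in GXUR001. *POX_b02749*, on the other side, had 1268 and 622 FPKM in TE4-10 and 1030.0, 935 and 828 FPKM in GXUR001. Rescaled levels in TE4-10 replicate 1 were 1.74 and 1.96 times those in replicate 3 in these genes, against 0.921 in *POX_b02748* between them. Neither neighbour was called (log2 fold changes 0.55 and 0.34, limma adjusted p = 0.17 and 0.48). Without TE4-10 replicate 1 *POX_b02747* was called higher (0.96, limma adjusted p = 0.023), and without replicate 3 its log2 fold change was 0.15. *POX_b02749* was at 0.82 and -0.15 in the same fits and was not called.

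*POX_d04884* lies beside *POX_d04883*, a GH7 endoglucanase gene. *POX_d04883* had 2155 and 1219 FPKM in TE4-10 and 2862, 2617 and 2069.9 FPKM in GXUR001, and these deposited values overlapped. After rescaling, TE4-10 had 1883 and 1109 FPKM and GXUR001 3272, 2855 and 2088 FPKM, which did not overlap. Its TE4-10 ratio was 1.70, where that of *POX_d04884* was 1.01, and its log2 fold change was 0.90 (SE 0.30), not called. The GH30 xylanase gene *POX_c03490* lies beside *POX_c03491*, a GH43 arabinofuranosidase gene whose enzyme class removes arabinose side chains from xylan. *POX_c03491* had 71.5 and 53.1 FPKM in TE4-10 and 152, 149.9 and 143 FPKM in GXUR001 (log2 fold change 1.53, SE 0.15).

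**Figure D5:**
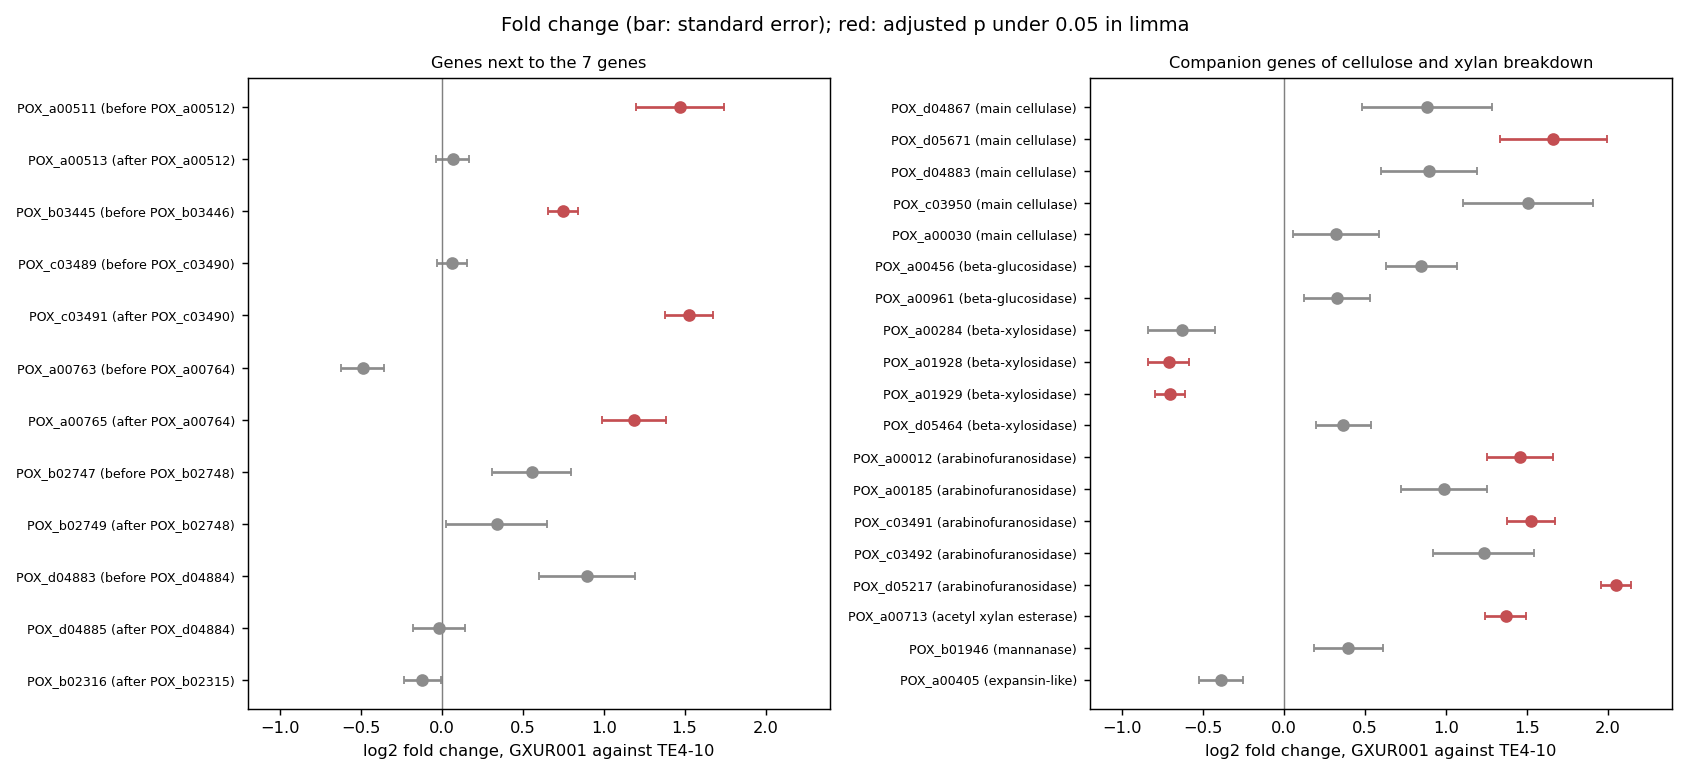
Log2 fold change of GXUR001 against TE4-10 (points, bars are the standard error) of the genes next to the 7 (left, without *POX_b02314*, listed at 0 in TE4-10, and an untested gene) and of the 19 companion genes (right), with genes called by limma in red. The beta-xylosidase genes *POX_a01928* and *POX_a01929* lie below 0, at -0.71 and -0.70, and the arabinofuranosidase genes lie between 0.99 and 2.05.

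The 19 companion genes were taken from the same list of differentially expressed genes in the paper, so their calls and fold changes are a description and not independent evidence. Of them 5 were called higher and 2 lower, with a median log2 fold change of 0.89, beside 9.74% and 8.08% of all genes. The count of 7 calls fell to 1 without GXUR001 replicate 2. Of 5 genes for main cellulases, which are cellobiohydrolases and endoglucanases, 1 was called higher (*POX_d05671*, log2 fold change 1.66, SE 0.33), and that call was lost in 4 of the 5 fits that left out a library. All 5 had levels 1.67 to 2.09 times as high in TE4-10 replicate 1 as in replicate 3, the direction of *POX_a00764*. Neither of the 2 β-glucosidase genes, whose products split cellobiose, was called (log2 fold changes 0.85 and 0.33).

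Among the remaining listed companions there were fold changes of both signs, again as a description. These genes were grouped by annotated function, and the substrates of their enzymes were not tested. Of 5 arabinofuranosidase genes 3 were called higher, *POX_d05217* (log2 fold change 2.05, SE 0.09), *POX_c03491* and *POX_a00012* (1.46, SE 0.20). The acetyl xylan esterase gene *POX_a00713* was also called higher (1.37, SE 0.13). Of 4 β-xylosidase genes, whose products release xylose from the oligosaccharides that endo-xylanases leave, 2 were called lower. *POX_a01929* had 46.7 and 47.0 FPKM in TE4-10 and 22.7, 23.9 and 23.6 FPKM in GXUR001 (log2 fold change -0.70, SE 0.09). *POX_a01928* had 13.5 and 13.2 FPKM against 6.57, 6.34 and 6.22 FPKM (-0.71, SE 0.13), a call that each fit without 1 library lost. The mannanase gene *POX_b01946* (0.40, SE 0.21) and the expansin-like gene *POX_a00405* (-0.39, SE 0.14) were not called. *POX_a00405* was called lower on deposited FPKM (-0.66) and without TE4-10 replicate 3 (-0.59), and was at -0.19 without TE4-10 replicate 1.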

How the data were processed

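Polyadenylated RNA of mycelium was sequenced, and samples were grouped by their titles and genotype labels. The authors deposited FPKM values for each library, with 1337 rows outside the annotation. Their processing notes name bcl2fastq and HISAT2 without versions, and reads were matched to the *P. oxalicum* HP7-1 genome. The counting tool, strand handling and annotation version are not given in the sources used here, so fragments shared by similar or overlapping genes may be divided among them. The labels state biological replicates, 3 per strain, without saying how cultures were shared. The p-values set the strain difference against the spread between these libraries, moderated across genes, and speak for these libraries only.

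Libraries were rescaled by the median-ratio method, with divisors of 1.145 and 1.099 for TE4-10 replicates 1 and 3 and 0.875, 0.917 and 0.991 for the GXUR001 replicates. The 9636 genes whose FPKM averaged 1 or more were fitted on log2(value + 1), a scale that understates changes of low genes, with limma 3.58.1 in R 4.3.3 (eBayes with trend, residual degrees of freedom 3, prior degrees of freedom 2.45). Benjamini-Hochberg adjustment ran over every gene tested, and calls were made at an adjusted p under 0.05. The fit was tested on simulated data. Tables and plots were made in Python 3.11.15 with pandas 2.3.3 and matplotlib 3.10.9.

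Named genes were the 7 members, the nearest annotated gene on each side, 19 companions taken by function from the paper's list, *PoxAmyR*, actin, and for each member the 2 genes with the nearest profiles. Members, lists and rules were chosen with earlier results of these data known. Gene order came from a reference table (assembly ASM172317v3, 9718 of 9822 IDs matched) that gives no products, so genes could not be added by product name. The 14 alternatives were 3 other scalings, a pseudocount of 0.1, other filters, annotated genes alone, eBayes without trend, the replicate number as a block, and each library left out.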

Additional observations from a re-analysis of the deposited data

How the results depend on the processing

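No log2 fold change of the 7 genes reversed in any of the 14 alternatives, but these are not 14 separate checks. The other filters, annotated genes alone and eBayes without trend cannot change a fold change. The 7 genes were also chosen as upregulated in this contrast, so nothing is read from their shared sign. The median of the 7 was 0.77 on FPKM as deposited and 1.02 to 1.19 with 1 library left out. Genes called numbered 1718 (54.7% higher), and 2661 (17.4% higher) as deposited, where the median of all genes was -0.26, 1840 (43.4% higher) with upper quartile scaling, 785 (75.4% higher) with actin scaling, and 17 to 1824 with 1 library left out. They fell to 17, with 2293 at an unadjusted p under 0.05, without GXUR001 replicate 2, to 522 without replicate 1 and 547 without replicate 3 of GXUR001, and to 1092 without TE4-10 replicate 1. Flanking genes called were 1 with a mean FPKM of at least 10, since *POX_a00511* and *POX_a00765* then went untested, and 0 to 4 with 1 library left out. Companions called were 1 to 8 with 1 library left out.

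Small fold changes reversed. *POX_a00513* was at -0.19 as deposited and -0.022 to 0.16 with 1 library left out, and *POX_c03489* at -0.21 as deposited, -0.0021 with upper quartile scaling and -0.029 to 0.15. *POX_d04885* was at 0.052 with actin scaling and -0.13 to 0.10 with 1 library left out. With 1 library left out *POX_b02316* ran from -0.24 to 0.00050, *POX_b02749* from -0.15 to 0.82 and *POX_a00030* from -0.051 to 0.69, the last 2 negative only without TE4-10 replicate 3. With actin scaling the log2 ratio of TE4-10 replicate 1 to 3 of *POX_b02748* was 0.12 in place of -0.12. The causes were not tested.

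With the replicate number as a block, 0 genes were called by limma (2477 at an unadjusted p under 0.05), and so 0 flanking genes, 0 companions and 0 of the 7. That fit has 1 residual degree of freedom and gives GXUR001 replicate 2, which has no partner, no weight. Deviations of same-numbered libraries correlated at -0.0068 (replicate 1) and 0.037 (replicate 3) across genes, so the numbers were not taken to pair the cultures. FPKM carries no counts, so counting error could not be given.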
